A study of Mus musculus with 9 samples.

Results

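The genes described here drive the cell cycle and copy the genome. They were taken as the rows of the deposited expression table whose gene name is on a list of 42 members. All 42 were found, 1 row each, among 34745 genes. They fall into 6 regulators of G1 and of entry into S phase, 14 genes of S phase and DNA replication, and 22 genes of G2 and mitosis, and these classes are kept apart throughout.

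The series holds RNA-seq libraries from 9 subcutaneous tumours of LLC (Lewis lung carcinoma), a transplantable mouse line that the labels give as lung adenocarcinoma with a WT genotype. Cells were injected into the right flank of male C57BL/6 hosts, whose age the labels give as 6 to 8 without a unit, and hosts were assigned to treatment at random once tumours were near 100 mm3. In the first group, 3 tumours came from mice given BTZ (bortezomib, an inhibitor of the proteasome) at 0.5 mg/kg with an anti-PDL1 antibody at 10 mg/kg. A further 3 came from mice given the anti-PDL1 antibody alone at 10 mg/kg, and the last 3 from mice given an isotype control antibody at 10 mg/kg, all by intraperitoneal injection. The control libraries are titled blank, and the treatment label, isotype, was followed. BTZ was not given by itself in any group used here, so it is seen on top of the antibody alone. The labels name no animals, so a p-value measures the spread between these tumours.

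The cell cycle runs on cyclins, which appear and vanish in turn, and on the kinases (CDKs) that they switch on. In G1, cyclin D with Cdk4 and cyclin E with Cdk2 inactivate the retinoblastoma protein and free the E2F factors, which switch on the genes of DNA replication. In G2, the factors B-Myb and FoxM1 turn on the genes of mitosis, and cyclin B with Cdk1 starts it. Because resting cells make little of the S phase and mitotic RNAs, their level in a tumour is often read as a measure of how much of it is dividing. In bulk RNA, however, fewer cells of a type and less RNA per cell cannot be told apart. The proteasome, which bortezomib blocks, destroys cyclins, securin and CDK inhibitors during the cycle, and that step acts on proteins and is not seen in RNA.

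S phase and mitotic genes also differ in the short words in their promoters, shown here because the rule that chose the members did not use them. RefSeq promoter windows (build GRCm38.p6) run from 250 bases before to 50 bases after a gene's start. They were at hand for 33 of the 42 genes, in 34 windows, since Mcm7 has 2. The 14 S phase windows counted below include both, so not every S phase gene was searched. The E2F words searched were TTTCCCGC, TTTGGCGC, TTTCGCGC and TTTGCCGC. The cell cycle homology word (CHR), bound by the DREAM and B-Myb complexes, was TTTGAA, and the NF-Y word was CCAAT, all on both strands. Capitals below mark these words, lower case the bases around them, and each stretch ends at or before the gene's start. Mcm5 (chr8:75109341-75109506, plus strand) and Mcm6 (chr1:128359706-128359830, minus strand) stand for the S phase genes. Their capitals begin with 2 E2F words that overlap on opposite strands. Mki67 (chr7:135716457-135716582, minus strand), Cdk1 (chr10:69352913-69353135, minus strand), Cdc20 (chr4:118437344-118437411, minus strand) and Kif11 (chr19:37376322-37376381, plus strand) stand for the mitotic genes, with CHR words beside CCAAT words. Each is written 5′ to 3′ on the strand of its gene.
Mcm5: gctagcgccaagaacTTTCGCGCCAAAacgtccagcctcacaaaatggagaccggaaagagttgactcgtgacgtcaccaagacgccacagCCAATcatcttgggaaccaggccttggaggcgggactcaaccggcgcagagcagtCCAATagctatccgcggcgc
Mcm6: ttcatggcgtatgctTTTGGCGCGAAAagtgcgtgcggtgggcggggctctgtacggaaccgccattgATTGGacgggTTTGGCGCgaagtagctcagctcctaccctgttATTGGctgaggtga
Mki67: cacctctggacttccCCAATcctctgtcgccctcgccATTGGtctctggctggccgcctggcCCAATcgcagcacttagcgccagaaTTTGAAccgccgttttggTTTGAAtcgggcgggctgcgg
Cdk1: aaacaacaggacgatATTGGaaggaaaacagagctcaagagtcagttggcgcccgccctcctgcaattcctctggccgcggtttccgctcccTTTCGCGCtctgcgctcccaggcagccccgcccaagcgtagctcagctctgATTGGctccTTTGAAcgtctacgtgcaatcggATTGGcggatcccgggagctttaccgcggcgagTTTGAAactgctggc
Cdc20: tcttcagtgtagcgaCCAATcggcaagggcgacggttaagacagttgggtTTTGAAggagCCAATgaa
Kif11: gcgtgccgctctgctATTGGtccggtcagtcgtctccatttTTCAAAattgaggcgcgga
These 6 were picked as examples after the search. An E2F word was in 6 of 14 S phase windows (42.9%), in 1 of 16 mitotic windows (6.25%, that of Cdk1) and in 2.26% of all 32851 windows. The CHR word was in 2 of 14 S phase windows (14.3%), in 11 of 16 mitotic windows (68.8%) and in 17.9% of all windows. CCAAT was in 10 of 14 S phase windows (71.4%), in 14 of 16 mitotic windows (87.5%) and in 37.4% of all windows. CHR and CCAAT stood together in 11 of 16 mitotic windows and in 6.95% of all. Among the 4 windows of G1 genes, 1 had an E2F word and 0 had a CHR word. A match describes the letters and is no evidence of binding.

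Total counts ran from 18.52 M to 21.51 M per tumour (M, mega), and the members took between 0.572% and 0.693% of them. All 42 members passed the filter on low counts. Levels are given as CPM, counts scaled to a library of fixed size and by TMM (trimmed mean of M values, a correction for library composition). Mean counts per tumour ran from 280.2 for Cdc25c to 11898 for Mki67, with a median of 2346 over the members and 513 over all 14506 genes tested. Of 10 lung epithelium and adenocarcinoma markers 5 passed the filter. Nkx2-1, Sftpc and Sftpb, which define that lineage, had no count in any tumour, which allows at most 0.14 to 0.16 CPM (3 counts), and Epcam averaged 1.22 counts. Napsa, a lung adenocarcinoma marker, had 4.16 to 8.96 CPM, Cdh1 1.44 to 9.30 CPM, and the keratin genes Krt18 56.6 to 113 CPM, Krt8 3.64 to 26.6 CPM and Krt19 0.053 to 3.96 CPM. Skeletal muscle RNA differed most, the sum of 10 muscle markers being 839, 18.3 and 5.98 CPM in BTZ+anti-PDL1 tumours, 1081, 114 and 223 CPM in anti-PDL1 tumours and 6.77, 7.62 and 2977 CPM in isotype tumours. BTZ+anti-PDL1 replicate 1, anti-PDL1 replicate 1 and isotype replicate 3 are called muscle-rich below.

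The first question was what BTZ added to the antibody. No S phase gene, no mitotic gene and no G1 regulator passed the test between the BTZ+anti-PDL1 and the anti-PDL1 tumours. EdgeR's quasi-likelihood test called 0 of 42 members at an adjusted p under 0.05, where it called 0.0138% of all genes tested (2 genes). At an unadjusted p under 0.05 there was 1 member, Cdc45, against 5.82% of all genes. DESeq2 called 0 members, where it called 62 of all genes. The smallest adjusted p of a member was 0.849 (edgeR). Of 14 S phase genes 10 had a log2 fold change above 0, with a median of 0.033. For the mitotic genes it was above 0 in 14 of 22, with a median of 0.022, and for the G1 regulators in 3 of 6, with a median of -0.0065. The median over all genes tested was 0.0029. These counts hang on single tumours. Of 42 members 27 had a value above 0 with 9 tumours, but 17 when BTZ+anti-PDL1 replicate 3 or anti-PDL1 replicate 1 was left out and 35 when BTZ+anti-PDL1 replicate 2 or anti-PDL1 replicate 2 was left out.

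The second question was what the antibody changed by itself. Between the anti-PDL1 and the isotype tumours edgeR again called 0 of 42 members, where it called 0.0138% of all genes (2 genes). Nusap1 was the 1 member at an unadjusted p under 0.05, against 6.35% of all genes. DESeq2 called 0 members, where it called 15 of all genes, and the smallest adjusted p was 0.763 (edgeR). The value was above 0 for 5 of 14 S phase genes (median -0.023), 9 of 22 mitotic genes (median -0.011) and 3 of 6 G1 regulators (median 0.00065), beside a median of -0.0034 over all genes. With 9 tumours 17 of 42 members had a value above 0. The number was 31 with anti-PDL1 replicate 1 left out, 29 with isotype replicate 3 left out, 11 with anti-PDL1 replicate 2 left out, 12 with isotype replicate 1 left out and 33 with the 3 muscle-rich tumours left out. Without those 3 tumours the medians were 0.086 for S phase and 0.14 for mitotic genes.

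The third comparison set the combined treatment against the isotype control. It shares its BTZ+anti-PDL1 tumours with the first comparison and its isotype tumours with the second. EdgeR called 0 of 42 members, where it called 0.00689% of all genes (1 gene). At an unadjusted p under 0.05 there were 2 members, Nusap1 and Pcna, against 8.6% of all genes. DESeq2 called 0 members, where it called 107 of all genes. The smallest adjusted p was 0.52 (edgeR). The value was above 0 for 9 of 14 S phase genes (median 0.036), 15 of 22 mitotic genes (median 0.022) and 3 of 6 G1 regulators (median -0.0031), beside a median of -0.0011 over all genes. Here 27 of 42 members had a value above 0, against 14 without BTZ+anti-PDL1 replicate 3, 15 without isotype replicate 1 and 34 without isotype replicate 3.

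**Figure D1:**
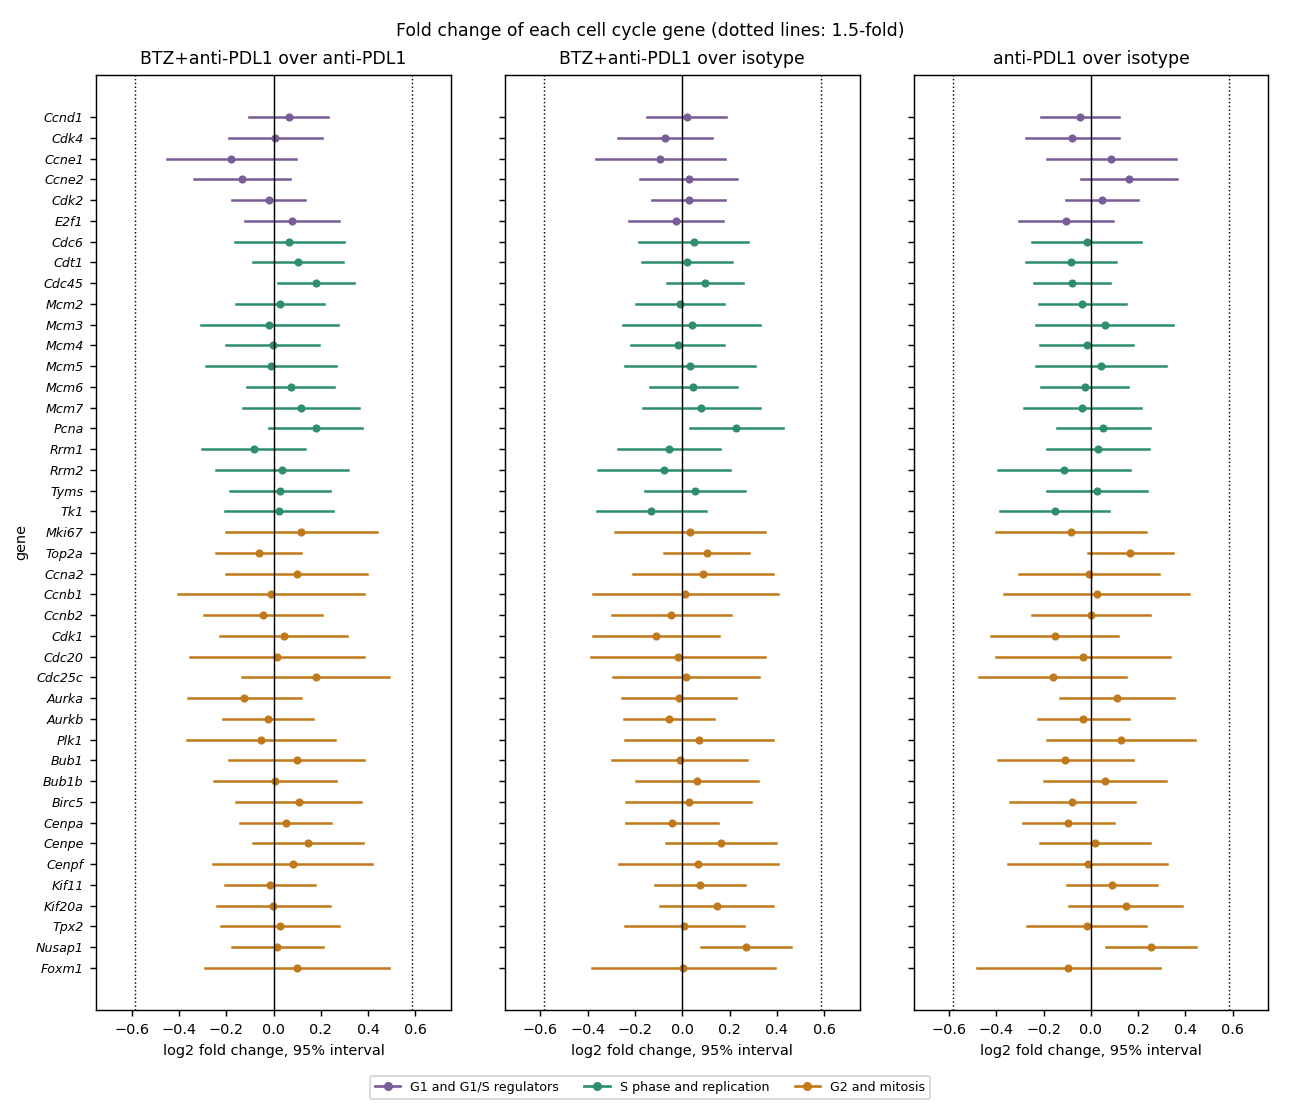
Log2 fold change of each of the 42 genes (points) with its 95% interval (bars) from edgeR, for BTZ+anti-PDL1 over anti-PDL1, BTZ+anti-PDL1 over isotype and anti-PDL1 over isotype. Colours mark the classes, dotted lines a 1.5-fold difference, and every interval lies between them.

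How large a difference these 9 tumours allow was read from the 95% intervals of the fold changes. For all 42 members and in each of the 3 comparisons the interval lay within 1.5-fold in either direction. The same held for 62.1% of all genes tested in BTZ+anti-PDL1 over anti-PDL1, for 61.4% in anti-PDL1 over isotype and for 60.4% in BTZ+anti-PDL1 over isotype. The outermost bounds of a member's log2 fold change were -0.45 and 0.49 for BTZ+anti-PDL1 over anti-PDL1. They were -0.48 and 0.45 for anti-PDL1 over isotype and -0.39 and 0.46 for BTZ+anti-PDL1 over isotype. The median standard error (SE) of a member was 0.11, beside 0.14 for all genes, and the members were also counted more deeply. The intervals are those of single genes, without adjustment for the number of genes, and those of Cdc45, Pcna and Nusap1 left out 0 in at least 1 comparison.

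Among the regulators of G1, Ccnd1 encodes cyclin D1, the partner of Cdk4 and Cdk6 (ENSMUSG00000070348, chromosome 7, 144929931 to 144939869, minus strand, build mm10, as are all positions of this kind). It had 576, 589 and 588 CPM in BTZ+anti-PDL1 tumours, 570.1, 515 and 591 CPM in anti-PDL1 tumours and 538, 601 and 591 CPM in isotype tumours. The groups overlapped and the log2 fold change of BTZ+anti-PDL1 over anti-PDL1 was 0.065 ± 0.074 (SE, edgeR adjusted p = 0.933). Cdk4, its kinase, had 266, 286 and 255 CPM in BTZ+anti-PDL1 tumours, 278, 282 and 243 CPM in anti-PDL1 tumours and 302, 290.3 and 257 CPM in isotype tumours. In each group replicate 3 was the lowest, and the groups overlapped. Its log2 fold change was -0.073 ± 0.088 for BTZ+anti-PDL1 over isotype (edgeR adjusted p = 0.83), the smallest p of a G1 regulator in that comparison.

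Cyclin E, made from Ccne1 and Ccne2, activates Cdk2 at the start of S phase. Ccne1 had 18.5, 14.96 and 15.8 CPM in BTZ+anti-PDL1 tumours, 17.7, 20.2 and 17.9 CPM in anti-PDL1 tumours and 15.8, 17.8 and 18.98 CPM in isotype tumours. Its log2 fold change in BTZ+anti-PDL1 over anti-PDL1 was -0.18 ± 0.12 (edgeR adjusted p = 0.886), and the groups overlapped through BTZ+anti-PDL1 replicate 1. Ccne2 had 29.2, 31.1 and 28.1 CPM in BTZ+anti-PDL1 tumours, 33.4, 33.3 and 30.4 CPM in anti-PDL1 tumours and 26.9, 28.3 and 31.6 CPM in isotype tumours. Its values of -0.14 ± 0.091 for BTZ+anti-PDL1 over anti-PDL1 (edgeR adjusted p = 0.886) and 0.16 ± 0.091 for anti-PDL1 over isotype (edgeR adjusted p = 0.773) share the anti-PDL1 tumours, 2 of which were the highest of the 9. Cdk2 was the steadiest member, its highest tumour being 1.16 times its lowest. It had 80.1, 73.7 and 68.8 CPM in BTZ+anti-PDL1 tumours, 76.8, 73.2 and 75.6 CPM in anti-PDL1 tumours and 71.8, 72.2 and 74.3 CPM in isotype tumours. The groups overlapped and the log2 fold change of BTZ+anti-PDL1 over isotype was 0.027 ± 0.069, a value that was -0.031 without BTZ+anti-PDL1 replicate 1.

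E2f1 is the activator of replication genes that the retinoblastoma protein holds back. It had 48.05, 52.6 and 57.2 CPM in BTZ+anti-PDL1 tumours, 49.2, 48.5 and 51.7 CPM in anti-PDL1 tumours and 56.7, 55.3 and 48.6 CPM in isotype tumours. The BTZ+anti-PDL1 and isotype tumours covered nearly the same range and the anti-PDL1 tumours lay inside it or at its low end. The log2 fold change of anti-PDL1 over isotype was -0.10 ± 0.089 (edgeR adjusted p = 0.849).

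**Figure D2:**
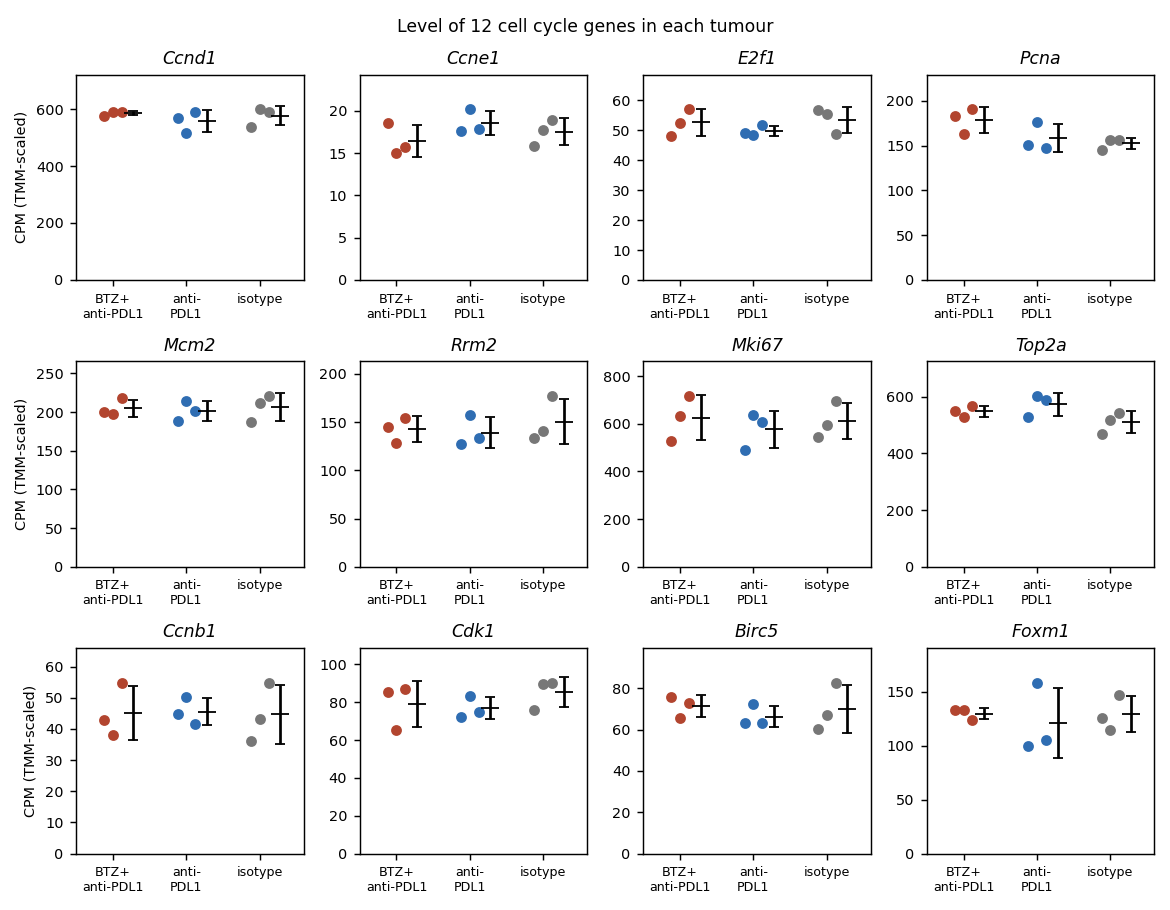
Level of 12 of the genes in each tumour (points, TMM-scaled CPM, axes from 0), with the mean and SD of each group of 3 as the bar beside it. Groups overlap in every panel but that of Pcna, where levels in the BTZ+anti-PDL1 tumours (163 to 191 CPM) lie above those of the isotype tumours (146 to 157 CPM).

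The S phase genes begin with the loading of the replicative helicase. Cdt1 and Cdc6 load the Mcm2 to Mcm7 ring onto origins, and Cdc45 then joins it to form the running helicase. Cdc45 (ENSMUSG00000000028, chromosome 16, 18780447 to 18811987, minus strand) had 58.4, 54.97 and 59.5 CPM in BTZ+anti-PDL1 tumours, 47.7, 50.6 and 54.6 CPM in anti-PDL1 tumours and 53.6, 53.8 and 54.4 CPM in isotype tumours. Every BTZ+anti-PDL1 tumour lay above every anti-PDL1 tumour and above every isotype tumour. Its log2 fold change was 0.18 ± 0.072 over anti-PDL1 (edgeR unadjusted p = 0.0338, adjusted p = 0.849) and 0.10 ± 0.072 over isotype (edgeR adjusted p = 0.724), and it did not pass the test. Cdc45 was the 1 member of 42 whose groups did not overlap between BTZ+anti-PDL1 and anti-PDL1, where 14.3% of all genes showed no overlap. The neighbouring gene Ufd1 overlaps it on the opposite strand in GENCODE M21. Without a stated strand setting, reads from the stretch they share cannot be told apart, and the share of such reads was not measured.

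Cdt1 had 103, 90.4 and 104 CPM in BTZ+anti-PDL1 tumours, 87.4, 94.8 and 94.1 CPM in anti-PDL1 tumours and 88.4, 107 and 97.96 CPM in isotype tumours. Groups overlapped, with a log2 fold change of 0.10 ± 0.086 for BTZ+anti-PDL1 over anti-PDL1 (edgeR adjusted p = 0.89) and -0.084 ± 0.086 for anti-PDL1 over isotype (edgeR adjusted p = 0.867). Mcm2, a subunit of the ring, had 199.8, 198 and 218 CPM in BTZ+anti-PDL1 tumours, 188, 214 and 202 CPM in anti-PDL1 tumours and 187, 211 and 221 CPM in isotype tumours. Its 3 groups covered nearly the same range, and the log2 fold change of BTZ+anti-PDL1 over anti-PDL1 was 0.027 ± 0.082. For the other ring subunits that value ran from -0.018 ± 0.13 (Mcm3) to 0.12 ± 0.11 (Mcm7), with groups overlapping for each, and Cdc6 had 0.067 ± 0.10.

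Pcna, the sliding clamp that holds DNA polymerase on its template (ENSMUSG00000027342, chromosome 2, 132249162 to 132253314, minus strand), had 183, 163 and 191 CPM in BTZ+anti-PDL1 tumours, 151, 176 and 148 CPM in anti-PDL1 tumours and 146, 157 and 156 CPM in isotype tumours. The BTZ+anti-PDL1 tumours lay above all isotype tumours, and anti-PDL1 replicate 2 reached into their range. The log2 fold change was 0.23 ± 0.088 over isotype (edgeR unadjusted p = 0.027, adjusted p = 0.543) and 0.18 ± 0.088 over anti-PDL1 (edgeR adjusted p = 0.877). Neither passed the test. With each tumour left out in turn the value over isotype kept between 0.19 and 0.29.

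The last S phase genes supply nucleotides. Rrm1 and Rrm2 are the subunits of ribonucleotide reductase, while Tyms and Tk1 make thymidine nucleotides. Rrm2 had 145, 128 and 155 CPM in BTZ+anti-PDL1 tumours, 127, 157 and 133 CPM in anti-PDL1 tumours and 133, 141 and 177 CPM in isotype tumours. The highest value was isotype replicate 3 and the groups overlapped, with a log2 fold change of 0.036 ± 0.12 for BTZ+anti-PDL1 over anti-PDL1. Tk1 had 57.8, 57.1 and 71.9 CPM in BTZ+anti-PDL1 tumours, 58.5, 64.5 and 60.9 CPM in anti-PDL1 tumours and 63.02, 73.7 and 67.7 CPM in isotype tumours. The isotype tumours lay at the upper end, which BTZ+anti-PDL1 replicate 3 and anti-PDL1 replicate 2 also reached, with a log2 fold change of -0.15 ± 0.10 for anti-PDL1 over isotype (edgeR adjusted p = 0.82) and -0.13 ± 0.10 for BTZ+anti-PDL1 over isotype (edgeR adjusted p = 0.732). Rrm1 had -0.085 ± 0.10 and Tyms 0.029 ± 0.094 in BTZ+anti-PDL1 over anti-PDL1.

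The mitotic genes include Mki67, whose protein Ki-67 coats mitotic chromosomes and is the usual stain for dividing cells, and Top2a, the topoisomerase that untangles sister chromatids. Mki67 (ENSMUSG00000031004, chromosome 7, 135689788 to 135716379, minus strand) had 528, 631 and 718 CPM in BTZ+anti-PDL1 tumours, 488, 635 and 607 CPM in anti-PDL1 tumours and 546, 593 and 695 CPM in isotype tumours. Each group held a low and a high tumour, and the log2 fold change was 0.12 ± 0.14 for BTZ+anti-PDL1 over anti-PDL1, with a 95% interval of -0.20 to 0.44. Top2a had 548, 530.2 and 567 CPM in BTZ+anti-PDL1 tumours, 528, 604 and 588 CPM in anti-PDL1 tumours and 469.5, 519 and 543 CPM in isotype tumours. The anti-PDL1 tumours were mostly above the isotype tumours but overlapped them, with a log2 fold change of 0.17 ± 0.08 (edgeR adjusted p = 0.763).

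Cdk1 and its cyclins carry cells into mitosis, and Cdc25c is the phosphatase that switches Cdk1 on. Cdk1 had 85.2, 65.2 and 86.9 CPM in BTZ+anti-PDL1 tumours, 72.2, 83.4 and 74.8 CPM in anti-PDL1 tumours and 76.03, 89.8 and 90.4 CPM in isotype tumours. Ccnb1, cyclin B1, had 42.9, 37.9 and 54.7 CPM in BTZ+anti-PDL1 tumours, 44.9, 50.2 and 41.5 CPM in anti-PDL1 tumours and 36.2, 43.3 and 54.9 CPM in isotype tumours. In both genes the spread inside a group was wider than the distance between groups, the log2 fold change of BTZ+anti-PDL1 over anti-PDL1 being 0.042 ± 0.12 for Cdk1 and -0.011 ± 0.17 for Ccnb1. Cdc25c, the least counted member, had 14.9, 12.6 and 17.1 CPM in BTZ+anti-PDL1 tumours, 12.3, 14.5 and 12.6 CPM in anti-PDL1 tumours and 13.2, 15.3 and 15.5 CPM in isotype tumours, and its log2 fold change was 0.18 ± 0.14 for the same comparison (edgeR adjusted p = 0.886). Ccna2 and Ccnb2, the other mitotic cyclins listed, had 0.10 ± 0.13 and -0.045 ± 0.11.

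Nusap1, which bundles spindle microtubules (ENSMUSG00000027306, chromosome 2, 119618298 to 119651244, plus strand), had the lowest p of the members against the isotype control. It had 57.3, 62.7 and 67.02 CPM in BTZ+anti-PDL1 tumours, 62.2, 64.4 and 58.3 CPM in anti-PDL1 tumours and 52.2, 47.7 and 55.3 CPM in isotype tumours. All 6 tumours that received the anti-PDL1 antibody lay above all 3 isotype tumours. The log2 fold change was 0.27 ± 0.085 for BTZ+anti-PDL1 over isotype (edgeR unadjusted p = 0.0107, adjusted p = 0.52) and 0.25 ± 0.085 for anti-PDL1 over isotype (edgeR unadjusted p = 0.0147, adjusted p = 0.763). Neither passed, and both values rest on the same isotype tumours. BTZ+anti-PDL1 over anti-PDL1 gave 0.016 ± 0.085. Nusap1 was the 1 member whose groups did not overlap between anti-PDL1 and isotype, where 12.7% of all genes showed no overlap. Between BTZ+anti-PDL1 and isotype there were 3 such members, Nusap1, Pcna and Cdc45, against 13% of all genes. Oip5, a centromere gene, overlaps Nusap1 on the opposite strand, so reads from the stretch they share cannot be told apart either.

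Motors and centromere proteins followed the same ranges. Cenpe, the motor that aligns chromosomes, had 146, 156 and 178 CPM in BTZ+anti-PDL1 tumours, 127, 154 and 154 CPM in anti-PDL1 tumours and 135, 139 and 156 CPM in isotype tumours. Its log2 fold change was 0.16 ± 0.10 for BTZ+anti-PDL1 over isotype (edgeR adjusted p = 0.68), with groups overlapping in isotype replicate 3. Kif20a, a motor of cytokinesis, had 108, 108 and 131 CPM in BTZ+anti-PDL1 tumours, 108, 122 and 117 CPM in anti-PDL1 tumours and 92.5, 104 and 117 CPM in isotype tumours, and its log2 fold changes of 0.15 ± 0.11 for anti-PDL1 over isotype and 0.15 ± 0.11 for BTZ+anti-PDL1 over isotype (edgeR adjusted p = 0.825 and 0.718) share the isotype tumours. Kif11, the motor that pushes spindle poles apart, ran from 128 to 159 CPM over the 9 tumours. Cenpa, the centromeric histone, ran from 75.4 to 92.2 CPM, and Cenpf from 145 to 204 CPM, with groups overlapping for all 3 genes.

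Aurora kinases, Plk1 and the checkpoint genes Bub1 and Bub1b control the spindle. Aurka had 46.4, 45.5 and 56.3 CPM in BTZ+anti-PDL1 tumours, 49.5, 59.5 and 52.6 CPM in anti-PDL1 tumours and 49.1, 46.9 and 53.7 CPM in isotype tumours. Its log2 fold change of BTZ+anti-PDL1 over anti-PDL1 was -0.12 ± 0.11 (edgeR adjusted p = 0.898), and the groups overlapped through BTZ+anti-PDL1 replicate 3. Birc5 encodes survivin, a partner of Aurora B. It had 75.8, 65.4 and 72.9 CPM in BTZ+anti-PDL1 tumours, 63.1, 72.4 and 63.4 CPM in anti-PDL1 tumours and 60.4, 66.9 and 82.7 CPM in isotype tumours. The highest tumour was an isotype one and the log2 fold change of BTZ+anti-PDL1 over anti-PDL1 was 0.11 ± 0.12. Aurkb, Plk1, Bub1, Bub1b, Tpx2 and Cdc20 had groups that overlapped in every comparison, with values between -0.11 ± 0.13 (Bub1) and 0.13 ± 0.14 (Plk1) for anti-PDL1 over isotype.

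Foxm1, the activator of mitotic genes, spread most of the members, its highest tumour being 1.59 times its lowest. It had 133, 133 and 123 CPM in BTZ+anti-PDL1 tumours, 99.4, 158 and 105 CPM in anti-PDL1 tumours and 126, 114 and 147 CPM in isotype tumours. Both extremes were anti-PDL1 tumours, replicate 2 high and replicate 1 low, while the 3 BTZ+anti-PDL1 tumours lay close together. The log2 fold change of BTZ+anti-PDL1 over anti-PDL1 was 0.10 ± 0.17 (edgeR adjusted p = 0.965).

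Spread over the 9 tumours was small. The median SD of log2 CPM was 0.14 over the members, with 0.10 for the G1 regulators, 0.11 for the S phase genes and 0.15 for the mitotic genes, beside 0.18 for all genes tested. Of the 42 members, 36 lay under that 0.18. The highest tumour was under 1.5 times the lowest for 40 of 42 members, the exceptions being Foxm1 and Ccnb1 (1.52 times), and under 1.2 times for 3 of 6 G1 regulators, 2 of 14 S phase genes and 1 of 22 mitotic genes. Deeply counted genes have less counting error, and the members had larger counts, but how far this lowered their spread was not tested.

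What variation there was ran across the replication and mitotic genes together, inside every group. BTZ+anti-PDL1 replicate 3 was the highest of its group for 13 of 14 S phase and 20 of 22 mitotic genes. Anti-PDL1 replicate 2 was the highest of its group for 9 of 14 S phase and 21 of 22 mitotic genes. Isotype replicate 3 was the highest for 18 of 22 mitotic genes but for 6 of 14 S phase genes, where isotype replicate 2 led in 8. The low end was as regular. BTZ+anti-PDL1 replicate 2 was the lowest of its group for 13 of 14 S phase and 15 of 22 mitotic genes, anti-PDL1 replicate 1 for 13 of 14 and 20 of 22, and isotype replicate 1 for 14 of 14 and 18 of 22. Over all genes tested, each tumour was the highest or the lowest of its group in 30.5% to 36.1% of genes.

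**Figure D3:**
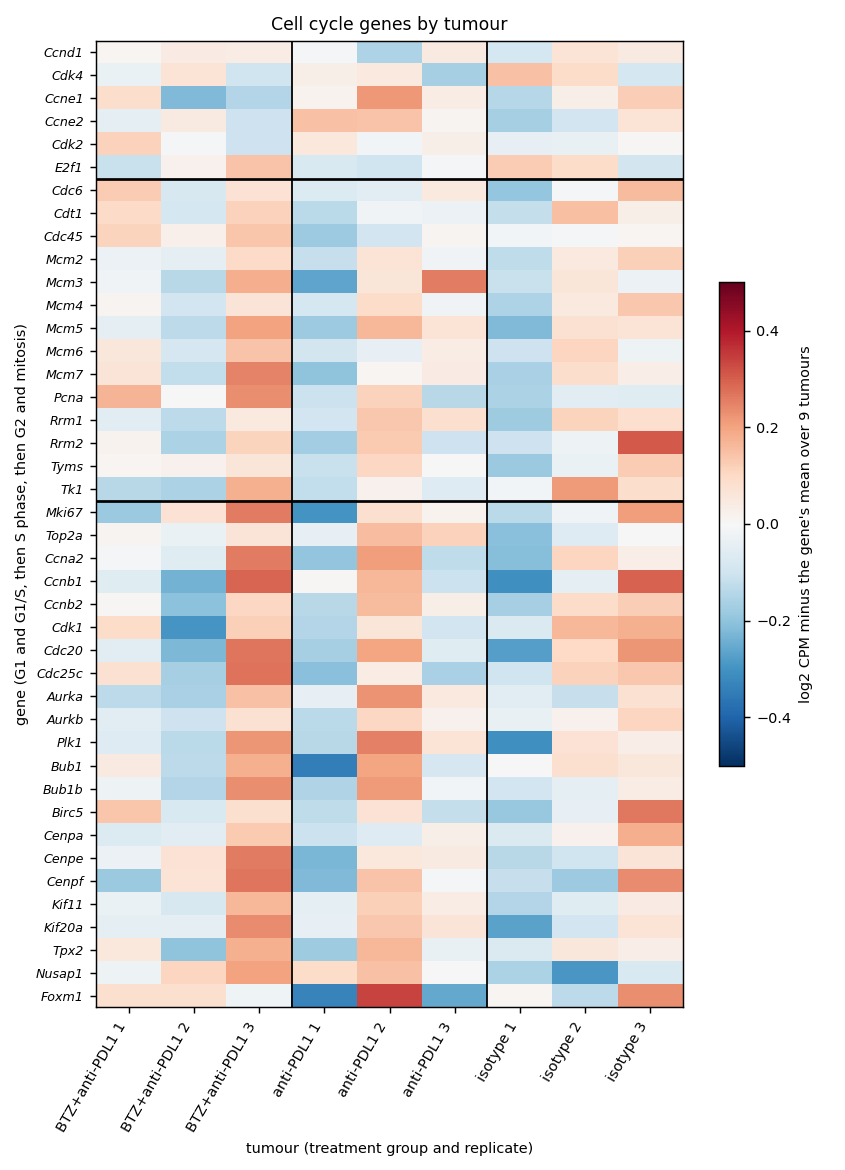
Log2 CPM of each gene minus its mean over the 9 tumours (colour), with tumours in columns by group and genes in rows by class, G1 at the top, then S phase, then G2 and mitosis. The columns of BTZ+anti-PDL1 replicate 3, anti-PDL1 replicate 2 and isotype replicate 3 are mostly red in the mitotic rows and those of anti-PDL1 replicate 1 and isotype replicate 1 mostly blue, while the 6 G1 rows show no common column.

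The G1 regulators had another order in 2 of the 3 groups. BTZ+anti-PDL1 replicate 3 was the highest of its group for 1 of 6 of them and the lowest for 3, and anti-PDL1 replicate 2 was the highest for 2 and the lowest for 3. In the isotype group replicate 3 was the highest for 3 of 6 and replicate 1 the lowest for 4 of 6, the same ends as in the mitotic genes. A class score, the mean over a class of log2 CPM minus each gene's mean over the 9 tumours, puts the size of the pattern on 1 scale. For mitotic genes it was -0.021, -0.089 and 0.18 in the BTZ+anti-PDL1 tumours, -0.15, 0.14 and -0.027 in the anti-PDL1 tumours and -0.14, -0.016 and 0.12 in the isotype tumours. Each group thus held a tumour near the bottom and a tumour near the top.

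The S phase score was 0.027, -0.084 and 0.13 in the BTZ+anti-PDL1 tumours, -0.14, 0.050 and 0.012 in the anti-PDL1 tumours and -0.13, 0.056 and 0.075 in the isotype tumours. The group means were 0.026 ± 0.11, -0.025 ± 0.099 and -0.00042 ± 0.11 (SD, n = 3 each), and for mitotic genes 0.024 ± 0.14, -0.0095 ± 0.14 and -0.014 ± 0.13, in the order BTZ+anti-PDL1, anti-PDL1 and isotype. The distance between groups was therefore smaller than the spread inside them. The difference of the S phase and mitotic scores within a tumour ran from -0.094 in anti-PDL1 replicate 2 to 0.072 in isotype replicate 2. The G1 score stayed between -0.045 and 0.027 in all 9 tumours.

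Other measures were set beside these scores. T cell markers, 9 genes, summed to 40.5, 24.8 and 39.5 CPM in BTZ+anti-PDL1 tumours, 28.5, 32.3 and 25.3 CPM in anti-PDL1 tumours and 21.7, 5.74 and 30.1 CPM in isotype tumours. In each group the tumour with the highest mitotic score had a larger T cell sum than the tumour with the lowest, although the tumour in the middle by score lay outside their range each time. The muscle sum took either end, since the muscle-rich anti-PDL1 replicate 1 had the lowest mitotic score of its group and the muscle-rich isotype replicate 3 the highest. Macrophage markers, 6 genes, summed to 667 to 1373 CPM, with isotype replicate 2 the lowest and anti-PDL1 replicate 2 the highest. Of all 10 marker lists, the summed level put the tumours of a group in the order of the mitotic score for neutrophils, endothelium and adipocytes in BTZ+anti-PDL1, for fibroblasts in anti-PDL1, and for adipocytes, skeletal muscle, B and plasma cells and red blood cells in isotype. Adipocyte markers, 4 genes, summed to 22.7, 8.87 and 32.3 CPM in BTZ+anti-PDL1 tumours, 28.3, 15.6 and 16.3 CPM in anti-PDL1 tumours and 10.1, 20.5 and 102 CPM in isotype tumours. Neutrophil markers, 4 genes, summed to 45.9, 32.1 and 61.98 CPM in BTZ+anti-PDL1 tumours, 71.3, 68.96 and 94.5 CPM in anti-PDL1 tumours and 67.6, 43.5 and 101 CPM in isotype tumours. By these sums no list kept the order of the mitotic score in all 3 groups (0 of 10). With 3 tumours in a group, a list can match an order by chance. The orders depend in part on the measure. By list score, T cells in BTZ+anti-PDL1 and the lung epithelium list in isotype also followed the mitotic score, while red blood cells in isotype did not. The part of these cells in the scores was not tested. Total counts of the 3 tumours with the highest mitotic score in their group were 19.15 M, 19.68 M and 18.78 M, inside the range of the others.

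**Figure D4:**
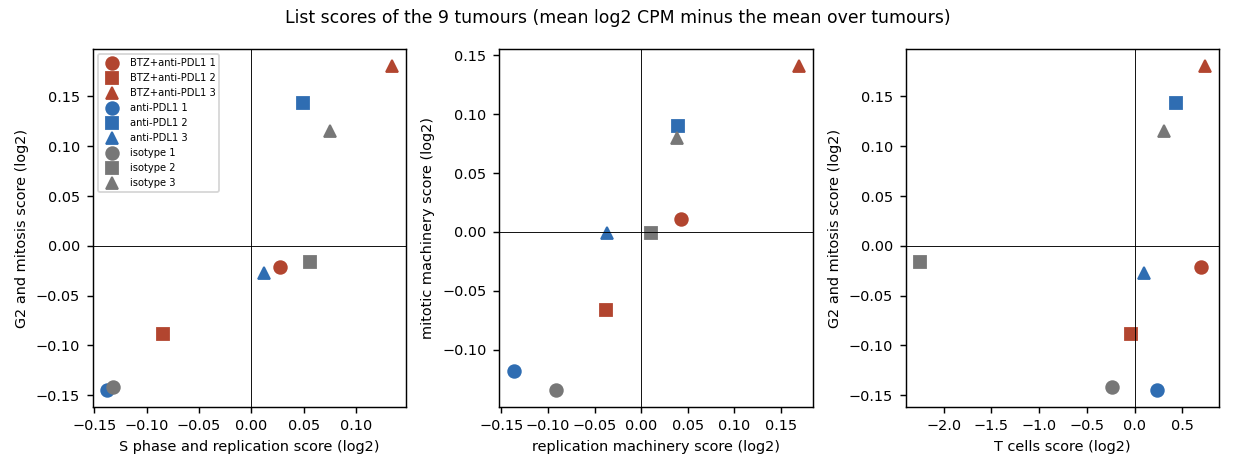
Scores of the 9 tumours in log2 units, coloured by group and shaped by replicate number: mitotic against S phase genes (left), 29 further mitotic against 30 further replication genes (middle), and mitotic genes against T cell markers (right). In the left and middle panels tumours of all 3 groups lie along 1 diagonal, and in the right panel isotype replicate 2 stands far to the left with a mitotic score of -0.016.

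Related genes, of 1 family or with products that bind each other, were compared within each tumour by the log2 ratio of their CPM values. The zero of that ratio has no meaning since gene lengths differ. Over the 9 tumours the ratio spanned 0.26 for Aurkb over Aurka, 0.32 for Bub1b over Bub1, 0.33 for Ccnb2 over Ccnb1, 0.40 for Ccne2 over Ccne1 and 0.41 for Rrm2 over Rrm1. Ratios to genes outside the list spanned 0.36 for Ccnd1 over Ccnd2, 0.71 for Ccnd1 over Ccnd3, 0.44 for Cdk4 over Cdk6 and 0.47 for Cdt1 over its inhibitor Gmnn. The widest, with Ccnd3, had its lowest value of 2.79 in isotype replicate 3 and its highest of 3.49 in anti-PDL1 replicate 3.

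Levels between genes were compared per length. Divided by the longest coding transcript of GENCODE M21, Ccnd1 had the highest level at 153 CPM per kilobase (mean of 9 tumours), followed by Cdk4 at 133, Pcna at 108 and Top2a at 104. The Mcm2 to Mcm7 subunits, which form a ring of 1 copy each, lay between 46.2 for Mcm4 and 71.9 for Mcm6. The lowest levels were 7.32 for Cdc25c, 7.60 for Cdc6, 8.75 for Ccne1 and 10.1 for Ccne2. On the deposited FPKM scale the same genes had 136 (Ccnd1), 42.8 (Cdk4), 46.5 (Pcna), 50.7 (Top2a), 7.33 (Cdc25c), 3.64 (Cdc6), 4.66 (Ccne1) and 3.89 (Ccne2).

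The scales part because the deposited FPKM implies 1 length per gene, and that length is often longer than any coding transcript. For Cenpa it was 9698 bases against 1466 for the longest coding transcript, 6.62 times as long, for Tk1 7385 against 1440 bases (5.13 times), and for Tyms 10435 against 3163 bases (3.30 times). The ratio was above 1.5 for 23 of 42 members and for 52.0% of 16763 genes with a coding transcript. By FPKM Cenpa ranked 36th of the 42 members and by the longest transcript 16th, and 5 members moved by 10 ranks or more. Comparisons of 1 gene between tumours do not depend on this length.

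**Figure D5:**
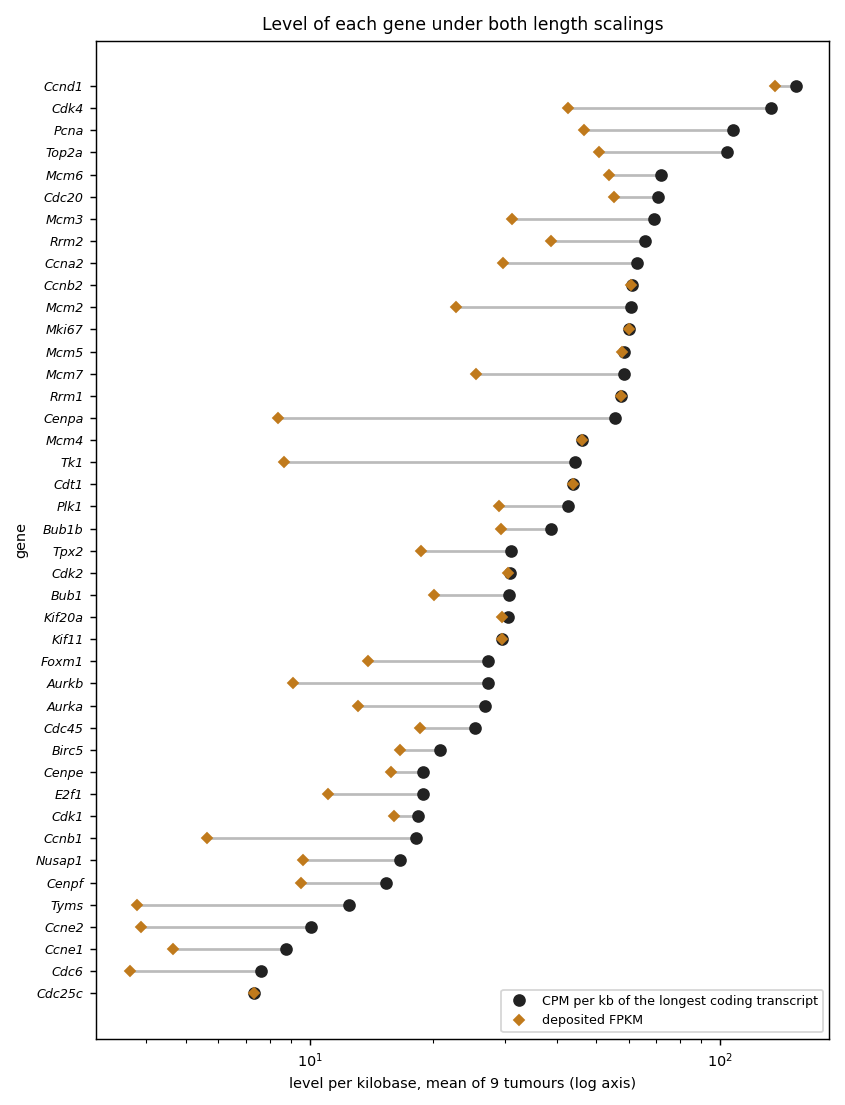
Mean level of each gene over 9 tumours on a log axis, per kilobase of its longest coding transcript (black circles) and as deposited FPKM (orange diamonds), joined by a line. Ccnd1 leads on both scales, and long lines, as for Cenpa and Tk1, mark genes whose deposited FPKM implies a much longer gene.

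Further genes of the same machinery were described from 4 lists. Beside each list, the calls over all genes were 0.0138%, 0.0138% and 0.00689% by edgeR and 62, 15 and 107 genes by DESeq2. These stand in the order BTZ+anti-PDL1 over anti-PDL1, anti-PDL1 over isotype and BTZ+anti-PDL1 over isotype. Of 30 other replication genes all were tested, and edgeR and DESeq2 called 0 in any comparison. At an unadjusted p under 0.05 (edgeR) there was 1 in BTZ+anti-PDL1 over anti-PDL1, 2 in anti-PDL1 over isotype and 1 in BTZ+anti-PDL1 over isotype, where the shares over all genes were 5.82%, 6.35% and 8.6%. The log2 fold change was above 0 in 22 for BTZ+anti-PDL1 over anti-PDL1 (median 0.081), 17 for anti-PDL1 over isotype (median 0.012) and 24 for BTZ+anti-PDL1 over isotype (median 0.059). Over all 14506 genes it was above 0 in 7362, 7111 and 7212, in the same order of comparisons. How far such counts hang on single tumours was not measured for the further lists. Of these 30 genes, BTZ+anti-PDL1 replicate 3 was the highest of 9 tumours in 14 and isotype replicate 3 in 8. The lowest was anti-PDL1 replicate 1 in 10 and isotype replicate 1 in 9. Those with the smallest p were Gins4, a subunit of the running helicase, with 0.18 ± 0.081 in BTZ+anti-PDL1 over anti-PDL1 (edgeR adjusted p = 0.857), Orc6, of the origin recognition complex, with -0.19 ± 0.075 in anti-PDL1 over isotype (edgeR adjusted p = 0.763), and Prim2, of the primase, with 0.19 ± 0.074 in BTZ+anti-PDL1 over isotype (edgeR adjusted p = 0.549). Orc6 had 55.1, 50.4 and 53.3 CPM in BTZ+anti-PDL1 tumours, 44.8, 46.8 and 50.01 CPM in anti-PDL1 tumours and 51.2, 54.5 and 56.3 CPM in isotype tumours. The anti-PDL1 tumours were the lowest in it, below every tumour of the other groups. BTZ+anti-PDL1 and anti-PDL1 tumours did not overlap in 5 of these 30 genes (16.7%), beside 14.3% of all genes. Between anti-PDL1 and isotype it was 2 of 30 (6.67%), beside 12.7% of all genes.

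Of 30 other mitotic genes 29 were tested and 0 were called by edgeR or DESeq2. At an unadjusted p under 0.05 (edgeR) there were 0 in BTZ+anti-PDL1 over anti-PDL1, 1 in anti-PDL1 over isotype and 2 in BTZ+anti-PDL1 over isotype, no larger a share than the 5.82%, 6.35% and 8.6% of all genes. The value was above 0 in 19, 15 and 19 of them for BTZ+anti-PDL1 over anti-PDL1, anti-PDL1 over isotype and BTZ+anti-PDL1 over isotype, with medians of 0.033, 0.0023 and 0.030. Ndc80, which anchors microtubules at the kinetochore, had 49.3, 46.2 and 50.4 CPM in BTZ+anti-PDL1 tumours, 39.2, 46.1 and 43.9 CPM in anti-PDL1 tumours and 39.4, 35.9 and 45.1 CPM in isotype tumours. Every BTZ+anti-PDL1 tumour lay above the others, narrowly so over anti-PDL1 replicate 2, with a log2 fold change of 0.28 ± 0.10 over isotype (edgeR adjusted p = 0.543). Ndc80 was the 1 gene of the 29 without overlap between BTZ+anti-PDL1 and anti-PDL1, beside 14.3% of all genes. The same held between BTZ+anti-PDL1 and isotype, beside 13% of all genes. Pttg1 encodes securin, a protein the proteasome removes at anaphase. It had 27.4, 19.3 and 23.9 CPM in BTZ+anti-PDL1 tumours, 20.00, 19.8 and 19.2 CPM in anti-PDL1 tumours and 17.8, 20.05 and 19.3 CPM in isotype tumours, and its log2 fold change over isotype was 0.31 ± 0.13 (edgeR adjusted p = 0.565), carried by BTZ+anti-PDL1 replicates 1 and 3.

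Tumour order within groups was much the same in these lists. BTZ+anti-PDL1 replicate 3 was the highest of its group for 22 of 29 mitotic and 21 of 30 replication genes, anti-PDL1 replicate 2 for 23 and 15, and isotype replicate 3 for 20 and 20. The lowest was BTZ+anti-PDL1 replicate 2 for 21 and 20, anti-PDL1 replicate 1 for 24 and 18, and isotype replicate 1 for 26 and 20.

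Brakes on the cycle and pocket proteins were 14 tested genes of 17, with 0 called by edgeR or DESeq2, 1 (Ccng1, BTZ+anti-PDL1 over isotype, where 8.6% of all genes were) at an unadjusted p under 0.05 and values above 0 in 8 for BTZ+anti-PDL1 over anti-PDL1, 7 for anti-PDL1 over isotype and 8 for BTZ+anti-PDL1 over isotype. Cdkn1a encodes p21, a CDK inhibitor that the p53 pathway induces. It had 238, 205 and 197 CPM in BTZ+anti-PDL1 tumours, 238, 183 and 189 CPM in anti-PDL1 tumours and 195, 247 and 163 CPM in isotype tumours, and the groups overlapped. Ccng1, another p53 target, had 298, 296 and 247 CPM in BTZ+anti-PDL1 tumours, 297, 247 and 228 CPM in anti-PDL1 tumours and 211, 242 and 214 CPM in isotype tumours. Its BTZ+anti-PDL1 tumours lay above all isotype tumours, with a log2 fold change of 0.34 ± 0.11 (edgeR adjusted p = 0.54), and did not pass the test. Ccng1 was the 1 gene of the 14 without overlap in that comparison, beside 13% of all genes. Cdkn2a and Cdkn2b, neighbouring genes of CDK inhibitors, stayed under the filter, Cdkn2a at 0.105 to 0.627 CPM and Cdkn2b at 0.25 to 0.468 CPM.

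The last list held 18 other cyclins, kinases, phosphatases and factors, of which 0 were called by edgeR or DESeq2 and 2 had an unadjusted p under 0.05, Cdk6 in BTZ+anti-PDL1 over anti-PDL1 and Ccnf in anti-PDL1 over isotype, against 5.82% and 6.35% of all genes. Log2 fold changes were above 0 in 11 for BTZ+anti-PDL1 over anti-PDL1, 6 for anti-PDL1 over isotype and 9 for BTZ+anti-PDL1 over isotype. Cdk6, the other cyclin D kinase, had 201, 223 and 208 CPM in BTZ+anti-PDL1 tumours, 198, 169.8 and 182 CPM in anti-PDL1 tumours and 193, 207 and 184 CPM in isotype tumours. Its BTZ+anti-PDL1 tumours lay above all anti-PDL1 tumours, with a log2 fold change of 0.20 ± 0.078 (edgeR adjusted p = 0.849). It was the 1 gene of these 18 without overlap in that comparison, beside 14.3% of all genes. Ccnf, the cyclin-like part of a ubiquitin ligase, had 71.3, 76.5 and 82.2 CPM in BTZ+anti-PDL1 tumours, 80.5, 82.2 and 78.1 CPM in anti-PDL1 tumours and 63.7, 60.1 and 75.6 CPM in isotype tumours, and its log2 fold change of anti-PDL1 over isotype was 0.27 ± 0.093 (edgeR adjusted p = 0.763). Myc, a driver of G1 entry, had 384, 263 and 304 CPM in BTZ+anti-PDL1 tumours, 295, 331 and 327 CPM in anti-PDL1 tumours and 326, 461 and 406 CPM in isotype tumours, with log2 fold changes of -0.33 ± 0.16 for anti-PDL1 over isotype and -0.33 ± 0.16 for BTZ+anti-PDL1 over isotype (edgeR adjusted p = 0.763 and 0.596) that share the isotype tumours.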

How the data were processed

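The deposited table gives, for each gene and tumour, a whole-number count made by the authors and an FPKM value made by the authors, per the file headers. HISAT2 2.0.4, StringTie 1.3.3b and build mm10 are named in the submitters' processing notes, without roles. The counting tool, annotation release and strand setting are not given in the sources used here, so counts of the 21 of 42 members that overlap another annotated gene (GENCODE M21) are uncertain, 12 of them lying over a protein-coding gene on the opposite strand.

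The main test was that of edgeR 4.0.16 (R 4.3.3) on the counts (TMM scaling, filterByExpr with a minimum count of 10, robust quasi-likelihood F test, 1 model of 3 group means over 9 tumours, 6 residual degrees of freedom). That left 14506 genes, over which p-values were adjusted (Benjamini-Hochberg), and a gene was called under 0.05. The SE was taken as the size of the log2 fold change over the root of its F value, and intervals are at 95%. CPM values carry no prior count, while class scores and the SD of log2 CPM use log2 CPM with a prior count of 2. The procedure was run on simulated counts that had the same variability for all genes and no differences shared by the genes of a tumour. That run does not measure error rates in these data. Groups follow the treatment label, by which, with the number, the columns of the combined treatment were also matched. Total counts of 18.52 M to 21.51 M set the precision, and the floor of 3 counts covers counting error alone. Replicates of a group differed by more than sampling noise (chi-square per degree of freedom of 19.4 to 42.6).

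Other settings were RLE scaling, DESeq2 1.42.0, no filter, a fit on just the 6 tumours of a comparison, a replicate block, each tumour left out, limma-trend (limma 3.58.1) on log2(FPKM + 1) and log2(FPKM + 0.1) for genes reaching an FPKM of 1 in 3 or more tumours, and the former with no filter, the muscle score as a covariate, and no muscle-rich tumours. The members and lists were chosen with earlier results of these data known, so no list was tested. Per-tumour values are given for a panel of 12 members and for the 3 members of each class with the smallest p in each comparison. From each further list they come from genes among its 3 smallest p. Epcam, Krt18, Nkx2-1, Sftpc, Sftpb and the muscle, T cell and macrophage sums are marker checks. Cdkn1a, Cdkn2a, Cdkn2b, Fen1 and the ratios of related genes were named after their values were seen.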

Additional observations from a re-analysis of the deposited data

How the results depend on the processing

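The count of members called was 0 in each of 3 comparisons under all 19 other settings. Single-gene log2 fold changes were followed for the 3 members of each class with the smallest p in each comparison. They kept their direction and side of the threshold in 511 of 513 cases. The exceptions were those of Cdk2 in BTZ+anti-PDL1 over isotype. Its value was -0.016 without the 3 muscle-rich tumours, with a range of -0.031 to 0.084 when each tumour was left out. Over all 42 members the number above 0 moved with the setting. It ran from 17 to 35 in BTZ+anti-PDL1 over anti-PDL1 and from 11 to 33 in anti-PDL1 over isotype. In BTZ+anti-PDL1 over isotype it ran from 14 to 34. Class medians moved by less than the spread of the scores in 165 of 171 cases. The exceptions were, in anti-PDL1 over isotype without the muscle-rich tumours, 0.14 for mitotic and 0.086 for S phase genes, and, for the G1 regulators, 0.022 in BTZ+anti-PDL1 over isotype by limma-trend on log2(FPKM + 0.1) and a leave-one-out range of -0.035 to 0.026 in BTZ+anti-PDL1 over anti-PDL1. The cause was not tested. The spread of the scores is wide beside these medians, so a change of sign can lie within it. With each tumour left out, mitotic medians ran from -0.047 to 0.11 in BTZ+anti-PDL1 over anti-PDL1 and from -0.058 to 0.11 in BTZ+anti-PDL1 over isotype. In anti-PDL1 over isotype they ran from -0.083 to 0.067. In the same order the S phase medians ran from -0.014 to 0.094, -0.035 to 0.090 and -0.084 to 0.035.

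The count over all genes moved more. For BTZ+anti-PDL1 over anti-PDL1 (2 genes) it was 62 by DESeq2, 4 with no filter, 12 with only the 6 tumours compared, 1 with the replicate block, 0 without the muscle-rich tumours and 1 to 7 with each tumour left out. For anti-PDL1 over isotype (2 genes) it was 15 by DESeq2, 1 with the replicate block, 0 without the muscle-rich tumours and 1 to 4 with each tumour left out. For BTZ+anti-PDL1 over isotype (1 gene) it was 107 by DESeq2, 3 by limma-trend with either pseudocount, 0 by limma-trend with no filter, 6 with no filter, 0 with only the 6 tumours compared, with the replicate block, with the muscle covariate or without the muscle-rich tumours, and 0 to 20 with each tumour left out. Leaving out 1 tumour leaves 2 in its group, whose spread is then pooled with the others. Whether replicate numbers pair the tumours is not known from the labels. Same-numbered tumours deviated with correlations of -0.43 to 0.39, and 1 of 9 correlated best with its own number. Such correlations cannot settle how the tumours were handled. Depth limits the least counted members most, and the smallest difference that could be called was not measured.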
